A study of Homo sapiens with 8 samples.

Results

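The angiogenic secreted factors described here are 10 genes taken by symbol from the 27945 genes of the count table: VEGFA, VEGFB, VEGFC, PGF, ANGPT1, ANGPT2, ANGPTL4, ESM1, HGF and STC1. Their products are released from cells and act on blood vessels, lymphatic vessels or epithelium. Of the 10 genes, 9 passed the filter on low counts, as did 12844 genes in all, and PGF did not. Nascent RNA was profiled by fastGRO-seq, in which nuclei are isolated, engaged polymerases extend their transcripts with a labeled nucleotide, and the labeled RNA is captured and sequenced, so that counts follow ongoing transcription over the gene body, introns included. The cells were IMR90, a line of human diploid fibroblasts from embryonic lung, kept under 2% oxygen. Senescence was induced by a fusion of the estrogen receptor with oncogenic RAS (ER:RAS), which was delivered by retrovirus with G418 selection and switched on by 4-hydroxytamoxifen (4-OHT). Per the study's methods, 4-OHT was used at 100 nM, and cells were harvested on day 6 to check RAS and senescence markers. The labels of these libraries give neither the dose nor the day, so both are uncertain for them.

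There were 4 groups of 2 libraries. Control cells were labeled wild type and control, with no shRNA named, and the labels do not say whether they carried ER:RAS. The other groups were senescent cells infected with lentivirus for a control shRNA (shControl), for an shRNA against METTL3 (shMETTL3) or for an shRNA against METTL14 (shMETTL14), selected with puromycin. Each knockdown used 1 shRNA sequence, so an effect of the target and an effect of that sequence cannot be told apart. The labels do not say whether control cells carried an shRNA vector. If they did not, senescence and shRNA infection go together in every comparison with control cells and cannot be told apart. Control libraries totalled 18494186 and 18781376 counts, shControl libraries 20306299 and 19976761, shMETTL3 libraries 15688334 and 14897360, and shMETTL14 libraries 17230672 and 18074200. Ribosomal RNA genes took 86.2% to 92.5% of these totals, which left 1513930 to 2048475 counts per library on all other genes. In bulk samples such as these, fewer transcribing cells and less nascent RNA per cell cannot be told apart.

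VEGFA is the main growth factor of blood vessel endothelium, VEGFC acts chiefly on lymphatic endothelium, and VEGFB and PGF bind the receptor FLT1. The angiopoietins ANGPT1 and ANGPT2 bind the endothelial receptor TEK, HGF binds the receptor MET on epithelium and endothelium, and ESM1 (endocan), ANGPTL4 and STC1 (stanniocalcin) are secreted proteins with reported effects on vessels and metabolism. Senescent fibroblasts release many cytokines, proteases and growth factors, and METTL3 and METTL14 together form the core of the complex that methylates adenosine in RNA.

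The knockdown targets were examined before the factors. METTL3 had 80 and 78 counts in control cells, 77 and 47 under shControl, 16 and 19 under shMETTL3 and 73 and 56 under shMETTL14. Both shMETTL3 libraries lay below all other libraries. METTL14 had 60 and 55 counts in control cells, 24 and 28 under shControl, 41 and 48 under shMETTL3 and 18 and 14 under shMETTL14. Both shMETTL14 libraries lay below all other libraries, yet the log2 fold change of METTL14 against shControl, -0.86 (standard error, SE, 0.34), did not pass edgeR's quasi-likelihood test (adjusted p = 0.076). Against shControl, METTL3 fell by 2.04 on the log2 scale (SE 0.31, adjusted p = 1.8e-05, edgeR). Nascent counts do not measure the mRNA or protein left after knockdown, and for both knockdowns the paper refers to a western blot.

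The labeled cell type was checked against its markers. Of 11 fibroblast markers, 11 passed the filter on low counts, and VIM, which encodes vimentin and had 3356 to 4417 counts per library, was the most abundant per length in the 3 senescent groups. In control cells COL1A1 stood above it, at 25.8 against 18.96 RPKM (CPM per kilobase of counted gene). The summed level of the 11 markers, in CPM (counts over the TMM-scaled library size), was 1958 and 1825 in control cells, 1157 and 1255 under shControl, 1079 and 905 under shMETTL3 and 587 and 681 under shMETTL14. The sum was therefore highest in control cells and lowest with shMETTL14, and the part of this shift in the levels of the secreted factors was not tested. Of 10 endothelial markers, 2 were tested, and PECAM1, CDH5 and KDR had at most 3 counts in every library. CLDN5 was the most abundant endothelial marker per length under shControl alone, with 8 and 5 counts there and 0 in the other 6 libraries, while TEK was highest in control cells (0.0461 RPKM) and TIE1 with shMETTL14 (0.110 RPKM). The summed endothelial level was 5.88 and 6.51 CPM in control cells, 4.42 and 3.98 under shControl, 3.95 and 4.72 under shMETTL3 and 4.02 and 4.64 under shMETTL14. Of 7 epithelial markers, EPCAM, CDH1, KRT5 and ESRP1 had at most 3 counts in every library, and KRT18 was the highest per length. The sum, mostly from KRT8 and KRT18, was 2.67 and 2.82 CPM in control cells and 3.04 and 1.62 under shControl. It was 1.32 and 1.22 under shMETTL3 and 4.30 and 3.41 under shMETTL14. KRT8 and KRT18 were called higher with shMETTL14 than with shMETTL3 by edgeR's test, and 1 of them by DESeq2. Of 5 immune markers, CD14 and CD3E had at most 3 counts in every library, and the sum, led by CD68, was 1.14 and 1.12 CPM in control cells and 1.80 to 4.22 in the senescent libraries.

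Fibroblast markers and genes known to mark senescence gave a measure of how the groups differ. Of the 11 fibroblast markers 8 were lower and 1 higher in senescent shControl cells than in control cells (median log2 fold change -1.0001), 3 were lower and 1 higher with shMETTL3 than with shControl (median -0.09), and 9 were lower with shMETTL14 (median -1.18). Scaled by library size alone, 10 fibroblast markers were lower and 0 higher in senescence, 1 was lower and 5 higher with shMETTL3, and 6 were lower and 1 higher with shMETTL14, and without any 1 of the 4 libraries 5 to 7 were lower and 0 higher in senescence. Of 9 genes chosen to check senescence, 6 were higher and 2 lower in shControl cells (median 2.31), and under knockdown 6 were lower and 1 higher with shMETTL3 (median -2.37) and 7 lower and 1 higher with shMETTL14 (median -2.02; 4 lower without shControl 1). Over all genes tested, 13.3% were higher and 13.3% lower in senescence, 12.3% and 11.2% with shMETTL3, and 9.15% and 12% with shMETTL14. MKI67, a marker of dividing cells, had 224 and 201 counts in control cells and 25 and 53 under shControl, and at most 3 in any knockdown library. IL1B, a cytokine of the senescent secretion, had 2 and 3 counts in control cells, 2161 and 2189 under shControl, 261 and 212 under shMETTL3 and 459 and 356 under shMETTL14. IL1B and CXCL8 are among the genes the study selected on these libraries for this pattern, so their directions are not independent evidence. CDKN1A, which encodes an inhibitor of the cell cycle, had 459 and 426 counts in control cells, 726 and 744 under shControl, 762 and 642 under shMETTL3 and 1817 and 1498 under shMETTL14.

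Among the VEGF ligands, VEGFA (chr6:43737946-43754223 in hg19, plus strand) had 82 and 70 counts in control cells, 284 and 268 under shControl, 174 and 179 under shMETTL3 and 143 and 156 under shMETTL14. The shControl libraries were the highest and the control libraries the lowest, with no overlap between any of the 4 groups in scaled counts. VEGFC (chr4:177604685-177713899, minus strand) had 471 and 538 counts in control cells, 2142 and 2044 under shControl, 1402 and 1993 under shMETTL3 and 918 and 958 under shMETTL14. Its groups followed that order without overlap after scaling, and the shMETTL3 libraries lay farther apart than those of any other group. VEGFB (chr11:64002056-64006736, plus strand), a ligand of FLT1, had 51 and 52 counts in control cells, 17 and 22 under shControl, 26 and 18 under shMETTL3 and 32 and 19 under shMETTL14. Control cells were highest, and the 3 senescent groups overlapped. PGF (chr14:75408533-75422467, minus strand), the placental growth factor, had 0 to 3 counts in each of the 8 libraries, so that no difference was detectable at this depth.

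The angiopoietins had fewer reads than VEGFC. ANGPT1 (chr8:108261710-108510283, minus strand), the activating ligand of TEK, had 186 and 207 counts in control cells, 72 and 67 under shControl, 80 and 83 under shMETTL3 and 59 and 52 under shMETTL14. Control cells were highest, and the shControl and shMETTL3 libraries overlapped in scaled counts. ANGPT2 (chr8:6357175-6420784, minus strand), which competes with ANGPT1 at the same receptor, had 51 and 41 counts in control cells, 75 and 90 under shControl, 126 and 139 under shMETTL3 and 111 and 106 under shMETTL14. Here control cells were lowest and shMETTL3 cells highest. ANGPTL4 (chr19:8429011-8439259, plus strand), an inhibitor of lipoprotein lipase, had 7 and 9 counts in control cells, 92 and 86 under shControl, 136 and 123 under shMETTL3 and 117 and 105 under shMETTL14. All 6 senescent libraries lay far above the control libraries, and neither knockdown group lay below shControl.

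The remaining factors are not of these families. ESM1 (chr5:54273695-54281414, minus strand) had 0 counts in both control libraries, 31 and 51 under shControl, 6 and 11 under shMETTL3 and 10 and 7 under shMETTL14. It was counted in senescent cells only, highest with shControl, and the knockdown groups overlapped each other. HGF (chr7:81328324-81399514, minus strand) had 781 and 823 counts in control cells, 399 and 450 under shControl, 736 and 837 under shMETTL3 and 254 and 353 under shMETTL14. The shMETTL14 libraries were lowest and the shMETTL3 libraries highest after scaling, on either side of shControl. STC1 (chr8:23699434-23712320, minus strand), a glycoprotein hormone, had 146 and 120 counts in control cells, 3361 and 3125 under shControl, 2952 and 2900 under shMETTL3 and 1798 and 1943 under shMETTL14. Its 4 groups did not overlap, with shControl highest and control lowest.

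**Figure D1:**
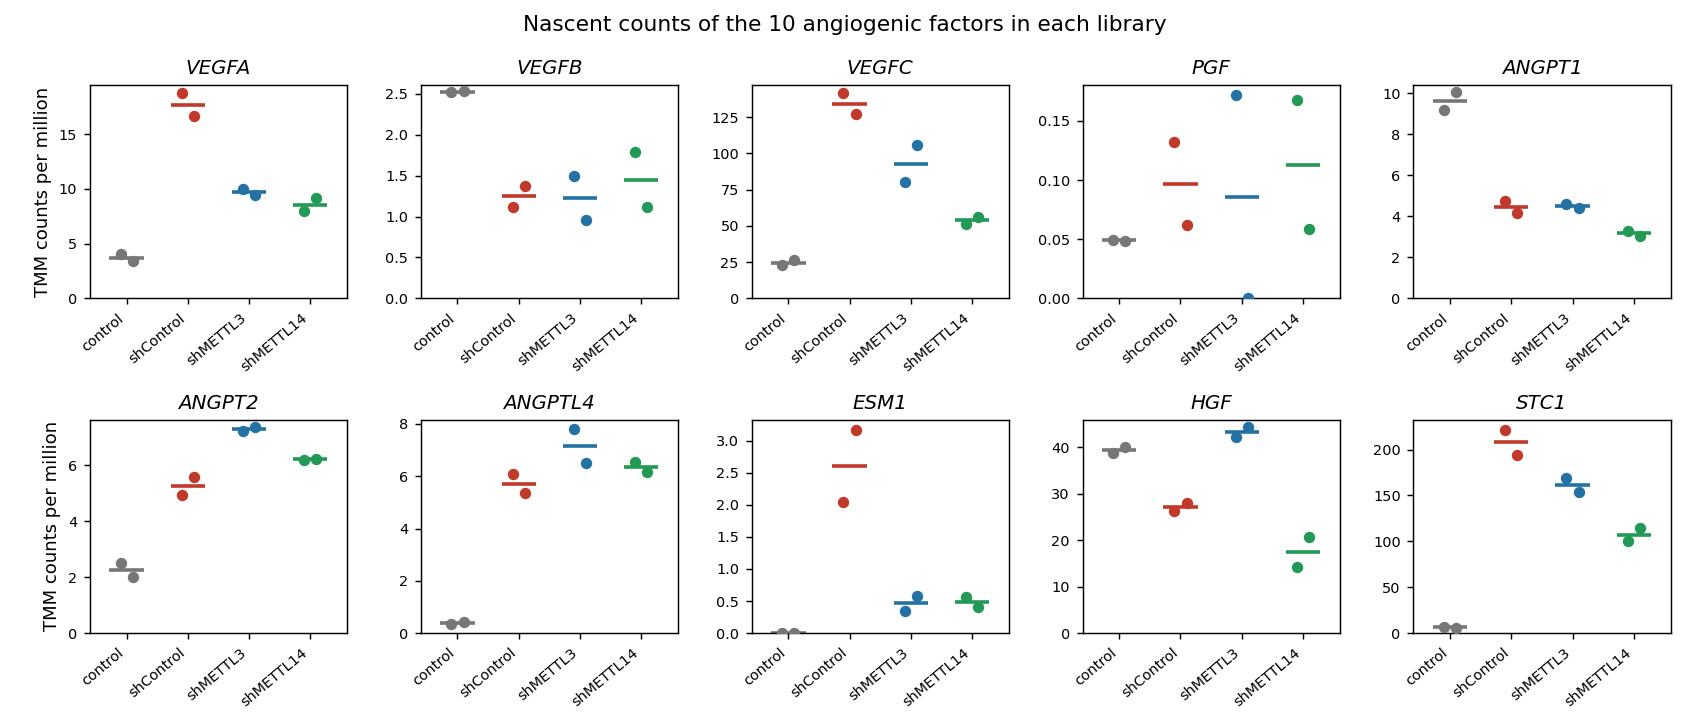
CPM after TMM scaling (y axis, linear, a separate scale for each gene) of the 10 factors in the 4 groups (x axis); each point is 1 library and each bar the mean of 2. VEGFA, VEGFC, ESM1 and STC1 were highest with shControl, HGF was lowest with shMETTL14, and PGF stayed at 3 counts or fewer in every library.

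Levels were compared between genes as RPKM, the TMM-scaled CPM per kilobase of counted gene. In control cells HGF (0.552 ± 0.0139, SD, n = 2), VEGFB (0.539 ± 0.000995) and STC1 (0.506 ± 0.0760) stood highest and did not differ beyond their spread. VEGFA (0.229 ± 0.0283) and VEGFC (0.226 ± 0.0186) came next, then ANGPT1 (0.0387 ± 0.00247), ANGPTL4 (0.0382 ± 0.00631) and ANGPT2 (0.0355 ± 0.00587), and neighbors within each of these sets overlapped. With shControl the order changed, and STC1 led by a wide margin at 16.1 ± 1.52 RPKM. VEGFC (1.23 ± 0.0931) and VEGFA (1.09 ± 0.0909) followed, and their difference was of the size of their spread. ANGPTL4 stood at 0.557 ± 0.0503, HGF at 0.381 ± 0.0161, ESM1 at 0.338 ± 0.103 and VEGFB at 0.266 ± 0.0370. ANGPT2 (0.0829 ± 0.00713), ANGPT1 (0.0179 ± 0.00168) and PGF (0.00697 ± 0.00355) were lowest.

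STC1 also led with shMETTL3 (12.5 ± 0.843 RPKM) and with shMETTL14 (8.32 ± 0.763). With shMETTL3 it was followed by VEGFC at 0.851 ± 0.164 and ANGPTL4 at 0.698 ± 0.0876, and then by HGF at 0.608 ± 0.0219 and VEGFA at 0.598 ± 0.0208, which did not differ beyond their spread. With shMETTL14 the next were ANGPTL4 at 0.620 ± 0.0245, VEGFA at 0.527 ± 0.0518 and VEGFC at 0.492 ± 0.0330, the last of which overlapped VEGFA. In that group HGF stood at 0.245 ± 0.0653, below VEGFB at 0.310 ± 0.101 but within its spread. ESM1 was at 0.0600 ± 0.0219 with shMETTL3 and at 0.0628 ± 0.0134 with shMETTL14.

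ANGPT2 was the only factor whose counted span overlapped another counted gene. It lies wholly inside MCPH1, a gene of the opposite strand that acts in the DNA damage response. The library kit was directional and the counting command in the file header sets a strand option. The counts nevertheless behaved as though strands were not separated, since among 61 genes (mean 100 counts or more) nested in a gene of the other strand, the enclosing gene matched or exceeded the nested count in all 8 libraries for 60. Reads of ANGPT2 and MCPH1 therefore cannot be told apart, and the level of ANGPT2 is uncertain. The reads per base of MCPH1 outside ANGPT2, carried over the span of ANGPT2, would make up 67.2% and 98.3% of its count in control cells, 50.9% and 49.9% under shControl, 40.2% and 35.9% under shMETTL3 and 58.8% and 49.1% under shMETTL14. With that density taken off, 17 and 1 counts of ANGPT2 were left in control cells, 37 and 45 under shControl, 75 and 89 under shMETTL3 and 46 and 54 under shMETTL14. The order of the group means was as before, but after scaling the shControl and shMETTL14 libraries then overlapped. In control 2 ANGPT2 lay close to the density of the surrounding gene (0.0313 against 0.0308 RPKM), and in control 1 it lay above that density (0.0396 against 0.0266). That density includes the reads of MCPH1-AS1, which shares 13.6% of MCPH1 and was not taken out, so the small net counts of control cells are uncertain. Of the other factors, ANGPTL4 lay 1 base from RAB11B-AS1 and VEGFB lay 303 bases from DNAJC4, and the remaining gaps to the nearest gene ran from 7602 to 401261 bases.

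**Figure D2:**
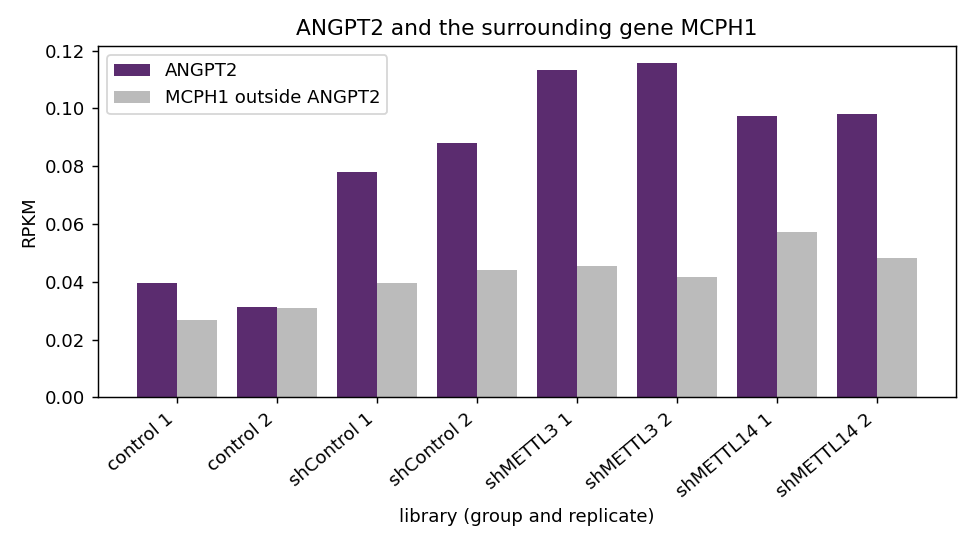
RPKM (y axis, from 0) of ANGPT2 and of MCPH1 outside ANGPT2 in each of the 8 libraries (x axis); each bar is 1 library. In control 2 the bars were nearly level, at 0.0313 and 0.0308, and in the shMETTL3 libraries ANGPT2 stood at 0.113 and 0.116 over 0.0456 and 0.0416.

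Promoter sequences were matched in RefSeq (GRCh38.p14) for 6 of the 10 factors, VEGFB, VEGFC, PGF, ANGPTL4, ESM1 and HGF. VEGFA, ANGPT1, ANGPT2 and STC1 are named only. The 300 bases from 250 before to 50 after each start were searched on both strands for ACGTG or GCGTG, the core of hypoxia response elements, for TGANTCA, the AP-1 motif, and for the NF-kappaB consensus. ACGTG or GCGTG was found in 6 of 6 factors and in 48.5% of all 35116 promoters of that length. TGANTCA was found in 0 of 6 and in 7.71% of all promoters, and the NF-kappaB consensus in 0 of 6 and in 7.73%. A match is a description of the letters in this window and no evidence of binding.

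The 250 bases upstream of the start are given for ESM1 and VEGFC, which rose in senescence and fell with both knockdowns, for ANGPTL4, which rose and did not fall, and for HGF, which moved in opposite directions with the knockdowns. These directions are those after TMM scaling, and that of VEGFC with shMETTL3 changed sign with library size alone. Capitals mark ACGTG or GCGTG on either strand, and every sequence runs 5′ to 3′ on the strand of its gene. The windows are chr5:54985594-54985843 (minus strand) for ESM1, chr4:176792923-176793172 (minus strand) for VEGFC, chr19:8363905-8364154 (plus strand) for ANGPTL4 and chr7:81770048-81770297 (minus strand) for HGF. Relative to the start of the counted gene, with negative values upstream, the RefSeq start lay at -7 bases for ESM1, -177 for VEGFC, 28 for ANGPTL4 and 151 for HGF.
ESM1: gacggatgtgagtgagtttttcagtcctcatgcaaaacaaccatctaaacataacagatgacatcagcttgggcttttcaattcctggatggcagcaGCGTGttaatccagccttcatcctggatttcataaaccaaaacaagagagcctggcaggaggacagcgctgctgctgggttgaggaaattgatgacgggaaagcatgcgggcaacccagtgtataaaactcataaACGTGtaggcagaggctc
VEGFC: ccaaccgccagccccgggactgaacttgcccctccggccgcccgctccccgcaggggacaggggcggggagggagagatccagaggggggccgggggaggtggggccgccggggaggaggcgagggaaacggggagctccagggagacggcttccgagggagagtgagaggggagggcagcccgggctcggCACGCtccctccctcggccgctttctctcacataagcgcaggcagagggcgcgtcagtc
ANGPTL4: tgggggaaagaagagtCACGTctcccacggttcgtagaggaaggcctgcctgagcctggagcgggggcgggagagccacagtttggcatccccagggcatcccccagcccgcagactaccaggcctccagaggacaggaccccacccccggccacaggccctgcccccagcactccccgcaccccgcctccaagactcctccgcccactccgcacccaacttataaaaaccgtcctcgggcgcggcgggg
HGF: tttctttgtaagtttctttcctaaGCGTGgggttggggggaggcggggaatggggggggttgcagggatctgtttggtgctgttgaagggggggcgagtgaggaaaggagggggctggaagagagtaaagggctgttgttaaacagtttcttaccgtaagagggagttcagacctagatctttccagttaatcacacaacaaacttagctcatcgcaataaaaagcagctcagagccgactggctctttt

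Senescent shControl cells were compared with control cells to ask which factors differ in transcription between them. STC1, ANGPTL4, VEGFC, VEGFA, ANGPT2 and ESM1 rose, and ANGPT1, VEGFB and HGF fell. STC1 was 31.8-fold higher, ANGPTL4 14.3-fold, VEGFC 5.43-fold and VEGFA 4.74-fold, and ESM1 was at least 17.7-fold higher against a floor of 3 counts per control library. In each of these 9 genes both shControl libraries lay on the same side of both control libraries, as they did in 8479 of the 12844 genes tested. Of the 10 factors, 6 were called higher, beside 13.3% of the 12844 genes tested, and 3 were called lower, beside 13.3%. The median log2 fold change of the 9 factors tested was 2.24 (also with ESM1 at its bound), and that of all genes tested was -0.03.

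By edgeR's quasi-likelihood test the log2 fold change of STC1 was 4.99 (SE 0.17, adjusted p = 2.2e-18). VEGFC rose by 2.44 (SE 0.15, adjusted p = 1.2e-12, edgeR) and VEGFA by 2.24 (SE 0.17, adjusted p = 3.9e-11, edgeR). ANGPTL4, with at most 9 counts in a control library, rose by 3.84 (SE 0.29, adjusted p = 7.2e-11, edgeR). ESM1 passed the test as well (adjusted p = 4.4e-08, edgeR), and its fitted fold change is not given because both control libraries were at 0. ESM1 is among the genes the study selected on these libraries for rising in senescence and falling with knockdown, so its direction is not independent evidence. ANGPT2 rose by 1.22 (SE 0.21, adjusted p = 6.5e-05, edgeR), and no fold is given with the density of MCPH1 taken off, since control 2 then held 1 count and the error of the subtraction was not measured. MCPH1, counted with the reads of ANGPT2 included, rose by 0.79 (SE 0.15, adjusted p = 2.0e-04, edgeR; 0.229 with library size alone).

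In log2 units ANGPT1 fell by 1.11 (SE 0.18, adjusted p = 2.3e-05, edgeR). VEGFB fell by 1.01 (SE 0.33, adjusted p = 0.023, edgeR), a call that was lost with DESeq2 (adjusted p = 0.127) and when any of the 4 libraries was left out: adjusted p was 0.0935 without control 1, 0.0922 without control 2, 0.191 without shControl 1 and 0.0758 without shControl 2. HGF fell by 0.53 (SE 0.15, adjusted p = 0.0078, edgeR), and this call was lost without control 2 (adjusted p = 0.075), without shControl 1 (0.126) or without shControl 2 (0.0572). When libraries were scaled by size alone, the median of all genes shifted from -0.03 to -0.53 in this comparison, and all 9 factors kept their direction.

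**Figure D3:**
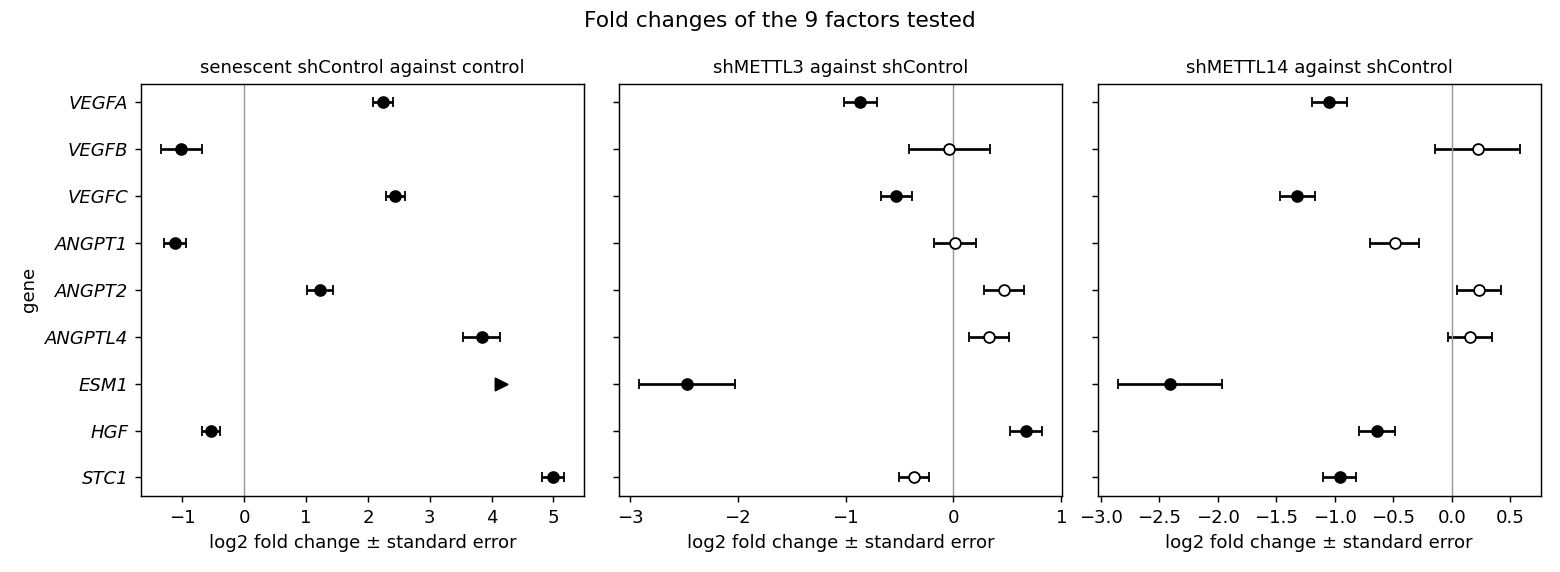
Log2 fold change (x axis) of the 9 factors tested (y axis) in 3 comparisons, 1 panel each; bars are standard errors, filled points passed an adjusted p of 0.05 and open points did not, and the triangle for ESM1 is a lower bound of 4.15. In the left panel 6 points lay above 0 and 3 below, and among the knockdown panels HGF was above 0 with shMETTL3 and below 0 with shMETTL14. With library size alone, VEGFC, STC1 and VEGFB in the middle panel change sign.

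The shMETTL3 and shMETTL14 groups were each compared with shControl to ask which factors depend on either methyltransferase in senescent cells. These comparisons share the shControl libraries, so their results are not independent. With shMETTL3, ESM1, VEGFA and VEGFC fell and HGF rose. ESM1 was 5.53-fold lower, VEGFA 1.82-fold and VEGFC 1.44-fold, and HGF was 1.59-fold higher, with both shMETTL3 libraries on the same side of both shControl libraries for each gene, as in 58.4% of all genes tested. Of the 10 factors, 3 were called lower, beside 11.2% of all genes tested, and 1 was called higher, beside 12.3%. This tally depended on scaling: by library size alone 1 factor was lower and 4 were higher, beside 353 lower and 5287 higher over all genes. The median log2 fold change of the 9 factors tested was -0.04, and that of all genes tested -0.03.

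In the same comparison the log2 fold change of ESM1 was -2.47 (SE 0.44, adjusted p = 1.8e-04, edgeR), that of VEGFA -0.86 (SE 0.15, adjusted p = 1.1e-04, edgeR) and that of HGF 0.67 (SE 0.15, adjusted p = 0.0014, edgeR). VEGFC fell by 0.53 (SE 0.14, adjusted p = 0.0082, edgeR), a call that was lost without shControl 1 (adjusted p = 0.118) or without shMETTL3 1 (0.0637). With library size alone, which shifted the median of all genes to 0.58 in this comparison, the value of VEGFC turned to 0.10 (adjusted p = 0.625, edgeR) and that of VEGFA was -0.25 (adjusted p = 0.318, edgeR), so both falls hold relative to the other genes and not relative to the total count. STC1 had a value of -0.37 (SE 0.14) that missed the threshold (adjusted p = 0.057, edgeR), passed it without shMETTL3 1 (0.0251), and turned to 0.25 with library size alone. ANGPT2 (0.47, adjusted p = 0.067), ANGPTL4 (0.32, adjusted p = 0.22), ANGPT1 (0.01, adjusted p = 0.98) and VEGFB (-0.04, adjusted p = 0.96) did not pass edgeR's test.

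With shMETTL14, ESM1, VEGFC, VEGFA, STC1 and HGF fell against shControl, and no factor was called higher. ESM1 was 5.32-fold lower, VEGFC 2.50-fold, VEGFA 2.06-fold, STC1 1.94-fold and HGF 1.56-fold, with both shMETTL14 libraries below both shControl libraries for each (groups did not overlap in 64.3% of all genes tested). Of the 10 factors, 5 were called lower, beside 12% of all genes tested, and 0 higher, beside 9.15%. At an unadjusted p below 0.05 edgeR's test also gave 0 factors higher, as did DESeq2 after adjustment, whereas library size alone gave 1, ANGPT2. The median log2 fold change of the 9 factors tested was -0.64, and that of all genes tested -4.87e-05.

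The log2 fold change with shMETTL14 was -1.32 for VEGFC (SE 0.15, adjusted p = 1.7e-07, edgeR), -1.05 for VEGFA (SE 0.15, adjusted p = 1.1e-05, edgeR), -0.96 for STC1 (SE 0.14, adjusted p = 1.3e-05, edgeR) and -2.41 for ESM1 (SE 0.44, adjusted p = 2.6e-04, edgeR). HGF fell by 0.64 (SE 0.15, adjusted p = 0.0037, edgeR), a call that was lost without shControl 2 (adjusted p = 0.0623) or without shMETTL14 1 (0.125), and with library size alone (0.203). Library size alone shifted the median of all genes to 0.35 in this comparison, and no factor that was called changed sign. ANGPT1 (-0.49, adjusted p = 0.10), ANGPT2 (0.24, adjusted p = 0.41), ANGPTL4 (0.16, adjusted p = 0.61) and VEGFB (0.22, adjusted p = 0.72) did not pass edgeR's test.

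The knockdown groups were also compared directly. VEGFC, HGF and STC1 were lower with shMETTL14 than with shMETTL3, and HGF differed most, by 2.48-fold. The log2 difference, shMETTL14 minus shMETTL3, was -1.31 for HGF (SE 0.15, adjusted p = 2.0e-07, edgeR), -0.79 for VEGFC (SE 0.15, adjusted p = 1.2e-04, edgeR) and -0.59 for STC1 (SE 0.14, adjusted p = 0.0017, edgeR), with no overlap between the groups, as in 66.3% of all genes tested. Thus 3 of 10 factors were called lower, beside 18.7% of all genes tested, and 0 higher, beside 16.5%, with 0 higher also at an unadjusted p below 0.05 and by DESeq2. The median of the 9 factors tested was -0.23 and that of all genes 0.01. VEGFA (-0.18, adjusted p = 0.39) and ESM1 (0.06, adjusted p = 0.95), which fell with either shRNA, did not pass edgeR's test of the difference.

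Both knockdown groups were still apart from control cells. With shMETTL3, 6 of 10 factors were higher than in control cells, beside 20.1% of all genes tested, and 2 were lower, beside 20.1%. With shMETTL14, 6 were higher, beside 19.7%, and 3 were lower, beside 20.5%. The same 6 factors that rose in shControl cells were higher in each knockdown group. STC1 had a log2 fold change of 4.63 with shMETTL3 (SE 0.17, adjusted p = 2.1e-17, edgeR) and of 4.04 with shMETTL14 (SE 0.17, adjusted p = 1.9e-16, edgeR), and ESM1 was at least 3.15-fold and 3.30-fold higher. HGF was 0.14 on the log2 scale with shMETTL3 (SE 0.14, adjusted p = 0.47, edgeR) and fell by 1.17 with shMETTL14 (SE 0.15, adjusted p = 5.5e-07, edgeR). VEGFB fell by 1.05 with shMETTL3 (adjusted p = 0.010, edgeR), lost with DESeq2 (0.0767) and without shMETTL3 2 (0.0876), and by 0.79 with shMETTL14 (adjusted p = 0.047, edgeR), lost with DESeq2 (0.191), with ribosomal RNA genes left out (0.0533), with no filter (0.0578) and without control 1 (0.138), control 2 (0.144) or shMETTL14 2 (0.364). The median of the 9 factors tested was 1.69 with shMETTL3 (1.66 with ESM1 at its bound) and 1.20 with shMETTL14, and that of all genes was -0.05 and 0.0024.

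The share of the senescence rise in mean CPM that was left under knockdown described how far each rising factor stood from control. For ESM1 17.8% was left with shMETTL3 and 18.6% with shMETTL14. For VEGFA 42.9% and 34.7% were left, for VEGFC 62.4% and 26.5%, and for STC1 76.9% and 50.01%. For ANGPTL4 (127% and 112%) and ANGPT2 (167% and 131%) the level stood above that of shControl. These shares were computed with TMM scaling and do not hold with library size alone. There the log2 fold changes of VEGFC (0.10) and STC1 (0.25) with shMETTL3 lay above shControl, and that of VEGFA was -0.25. Library size alone includes ribosomal RNA genes, which took 86.2% to 92.5% of the totals. With them it put the all-gene median with shMETTL3 at 0.58, and without them at -0.15.

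The receptors of these factors were examined in the same libraries. Of 8 receptor genes 6 were tested, because KDR and FLT4, the main receptors of VEGFA and VEGFC, had at most 2 counts in any library. In senescent shControl cells 3 were higher and 1 lower, with a median log2 fold change of 0.32. The shares of all genes tested were 13.3% higher and 13.3% lower. FLT1, the receptor shared by VEGFA, VEGFB and PGF, had 18 and 22 counts in control cells, 64 and 49 under shControl, 71 and 71 under shMETTL3 and 7 and 23 under shMETTL14. It rose by 1.88 in senescent shControl cells (SE 0.34, adjusted p = 1.2e-04, edgeR) and fell by 2.06 with shMETTL14 (SE 0.36, adjusted p = 1.2e-04, edgeR), where its counts spanned those of control cells. TIE1, the orphan partner of TEK, had 0 counts in control cells, 7 and 6 under shControl, 2 and 7 under shMETTL3 and 41 and 44 under shMETTL14. The shMETTL14 libraries stood far above the rest, with a log2 fold change against shControl of 2.53 (SE 0.47), and TIE1 was at least 16.6-fold higher than in control cells. Outside shMETTL14 every library lay below the minimum count of the filter, so TIE1 entered the tests through the shMETTL14 libraries alone. No p-value of TIE1 is given, because the test does not account for that selection. TIE1 is nevertheless among the receptors counted as higher in senescence and with shMETTL14, and it enters their medians.

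TEK, the angiopoietin receptor, had 105 and 123 counts in control cells, 37 and 48 under shControl, 49 and 68 under shMETTL3 and 13 and 26 under shMETTL14. Control cells were highest and shMETTL14 cells lowest. TEK fell by 1.04 in senescent shControl cells (SE 0.24, adjusted p = 0.0020, edgeR; 0.0599 without shControl 1) and by a further 1.28 with shMETTL14 against shControl (SE 0.32, adjusted p = 0.0048, edgeR; 0.0769 without shControl 2 and 0.149 without shMETTL14 1). NRP1 and NRP2, coreceptors of the VEGF family, were the most abundant receptors per length. NRP2 rose by 0.85 with shMETTL3 (SE 0.16, adjusted p = 2.9e-04, edgeR) and by 0.74 with shMETTL14 (SE 0.16, adjusted p = 0.0015, edgeR; 0.0894 without shControl 1). NRP1 fell by 0.67 with shMETTL14 (SE 0.14, adjusted p = 0.0011, edgeR; 0.134 with library size alone). With shMETTL14 2 of the receptors were higher and 3 lower than with shControl (median -0.37), and with shMETTL3 1 was higher (median 0.18). All genes tested gave 9.15% higher and 12% lower with shMETTL14 and 12.3% and 11.2% with shMETTL3. Scaled by library size alone, 2 receptors were higher and 2 lower in senescence and 4 were higher with shMETTL3, and without shControl 1 there were 2 higher and 0 lower in senescence and 1 higher with shMETTL14. MET, the receptor of HGF, had 45 to 53 counts in every library and passed the test in none of the 6 comparisons.

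**Figure D4:**
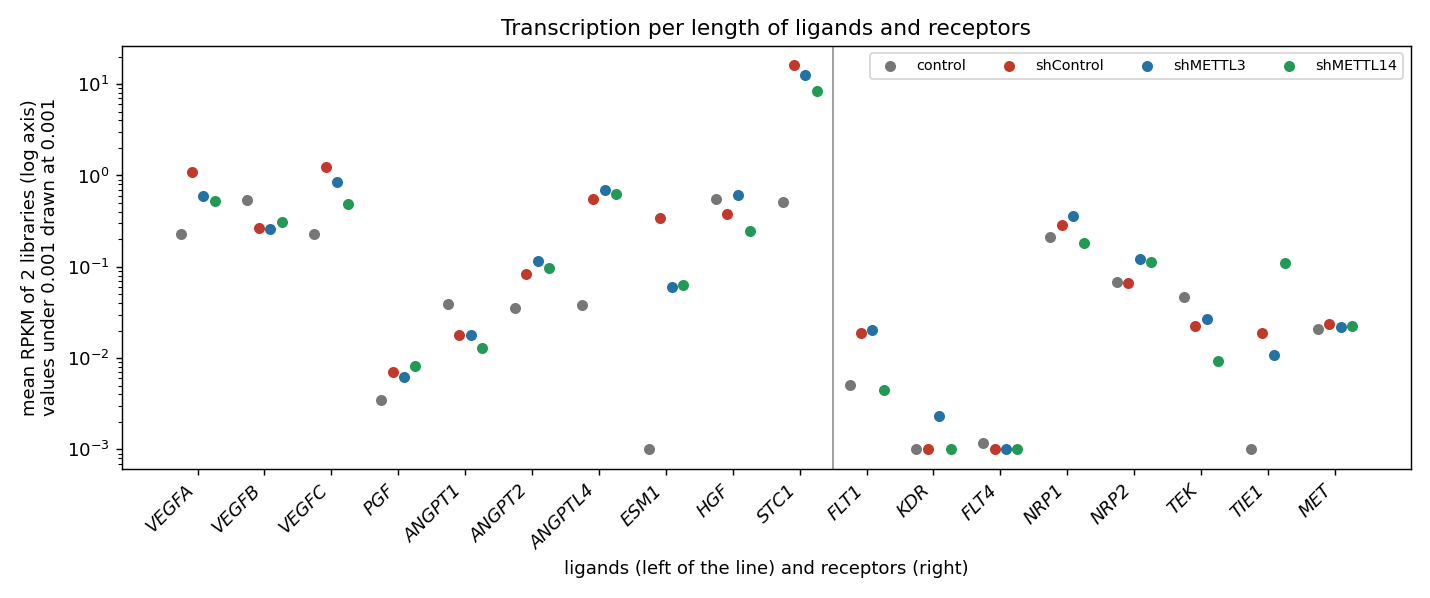
Mean RPKM of 2 libraries (y axis, log scale, values under 0.001 drawn at 0.001) of the 10 factors and of 8 receptor genes (x axis, left and right of the line) in the 4 groups. STC1 reached 16.1 with shControl, the receptor with the highest mean was NRP1 at 0.364 with shMETTL3, and KDR and FLT4 lay near the lower edge.

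Among genes that process HGF or VEGFC, 3 of 8 were tested, of which 2 were higher and 1 lower in senescence (median 0.87), and 1 was higher and 1 lower with shMETTL3 (median -0.13) and with shMETTL14 (median -0.22). All genes tested gave 13.3% higher and 13.3% lower in senescence, 12.3% and 11.2% with shMETTL3, and 9.15% and 12% with shMETTL14. Under library size alone these counts were 1 and 1 in senescence, 2 and 0 with shMETTL3 and 1 and 0 with shMETTL14, and by DESeq2 1 and 1 in senescence and 0 and 1 with shMETTL3. Without any 1 of the 4 libraries 1 was higher in senescence, without shControl 1, shControl 2 or shMETTL3 2 there were 0 higher with shMETTL3 (and 0 lower without shControl 2), and without shControl 1 there were 0 lower with shMETTL14. PLAU, the urokinase that can activate HGF, had 934 and 955 counts in control cells, 2532 and 2395 under shControl, 2785 and 2450 under shMETTL3 and 1922 and 1836 under shMETTL14. It rose by 1.77 in senescent shControl cells (SE 0.14, adjusted p = 1.8e-10, edgeR), although its counted span lies inside that of C10orf55, so their reads cannot be told apart. CCBE1, a cofactor in the maturation of VEGFC, had 1071 and 1013 counts in control cells, 293 and 385 under shControl, 228 and 261 under shMETTL3 and 1297 and 1040 under shMETTL14. The shMETTL14 libraries lay well above shControl, while VEGFC itself was lower than with shControl. CCBE1 fell by 1.24 in senescent shControl cells (SE 0.14, adjusted p = 1.5e-07, edgeR) and rose by 1.62 with shMETTL14 against shControl (SE 0.14, adjusted p = 4.3e-09, edgeR).

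Genes of oxygen sensing were examined next, with all cells labeled as kept under 2% oxygen. HIF1A, the inducible subunit of the hypoxia factor, had 591 and 674 counts in control cells, 1298 and 1350 under shControl, 1589 and 2191 under shMETTL3 and 1095 and 1066 under shMETTL14. EPAS1, its paralog, had 1414 and 1320 counts in control cells, 313 and 449 under shControl, 407 and 519 under shMETTL3 and 313 and 332 under shMETTL14. HIF1A rose by 1.45 in senescent shControl cells (SE 0.14, adjusted p = 9.2e-09, edgeR) and EPAS1 fell by 1.46 (SE 0.15, adjusted p = 1.4e-08, edgeR). The counted span of HIF1A shares 61.9% with LOC105370526, so its level is uncertain. Of 7 tested genes of oxygen sensing, these were the 2 that passed the test in senescence (median -0.04). Over all genes tested 13.3% were called higher and 13.3% lower, so this count is no result about the list. With shMETTL3 1 was lower (median 0.07) and with shMETTL14 1 was higher and 1 lower (median -0.24). The shares of all genes tested were 12.3% higher and 11.2% lower with shMETTL3 and 9.15% and 12% with shMETTL14. Under library size alone 1 was higher and 3 lower in senescence, 4 higher and 0 lower with shMETTL3, and 2 higher and 0 lower with shMETTL14. By DESeq2 0 were lower with shMETTL3 and 0 higher with shMETTL14. Leaving out 1 library gave 1 to 2 lower in senescence, 0 to 1 higher and 0 to 1 lower with shMETTL3, and 0 to 1 higher and 0 to 1 lower with shMETTL14.

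Of 13 tested hypoxia target genes, 7 were higher and 1 lower in senescent shControl cells, with a median log2 fold change of 0.53. Over all genes tested 13.3% were higher and 13.3% lower. With library size alone 2 of the hypoxia targets were higher and 2 lower, beside 752 higher and 5015 lower over all genes. LDHA, which makes lactate, rose by 0.96 (SE 0.15, adjusted p = 1.1e-05, edgeR), and P4HA1, a collagen hydroxylase, by 0.81 (SE 0.14, adjusted p = 6.8e-05, edgeR; 0.149 with library size alone). SLC2A1 was the 1 called lower, with a mean of 10.5 CPM in control cells and 5.90 under shControl. With shMETTL3, 1 of the hypoxia targets was higher and 5 lower than with shControl (median 0.01), and with shMETTL14 2 were higher and 1 lower (median -0.19). All genes tested gave 12.3% higher and 11.2% lower with shMETTL3 and 9.15% and 12% with shMETTL14. Scaled by library size alone, these counts turned to 8 higher and 1 lower with shMETTL3 and 5 higher and 0 lower with shMETTL14, and by DESeq2 3 were lower with shMETTL3 and 1 higher and 0 lower with shMETTL14. Leaving out 1 library gave 1 to 3 higher and 2 to 3 lower with shMETTL3, 1 higher and 0 lower with shMETTL14, and 5 to 6 higher and 0 to 1 lower in senescence. NDRG1, a stress response gene, rose with both, by 0.90 with shMETTL3 (SE 0.17, adjusted p = 3.0e-04, edgeR) and by 1.13 with shMETTL14 (SE 0.17, adjusted p = 1.6e-05, edgeR). ADM (adrenomedullin) fell by 1.33 with shMETTL3 (SE 0.20, adjusted p = 1.6e-05, edgeR).

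Among the PPAR genes and their fatty acid targets, which include regulators of ANGPTL4, 5 of 8 were tested. PPARG fell by 2.02 in senescent shControl cells (SE 0.17, adjusted p = 6.4e-10, edgeR), from 477 and 501 counts in control cells to 71 and 114 with shControl. CPT1A, which carries fatty acids into mitochondria, fell by 1.89 with shMETTL3 (SE 0.23, adjusted p = 5.9e-07, edgeR) and by 1.84 with shMETTL14 (SE 0.23, adjusted p = 8.4e-07, edgeR). In senescence 1 gene of this list was lower (median -0.12), with shMETTL3 3 were lower (median -0.50), and with shMETTL14 1 was higher and 2 lower (median -0.41). Over all genes tested, 13.3% were higher and 13.3% lower in senescence, 12.3% and 11.2% with shMETTL3, and 9.15% and 12% with shMETTL14. Under library size alone 3 were lower in senescence, and 1 was higher and 2 were lower with shMETTL3. Without shMETTL14 1 there were 0 higher with shMETTL14.

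Other angiogenic ligands were counted as a list of 17, of which 11 were tested. In senescence 2 were higher and 5 lower, with a median of -0.33. FGF2, a fibroblast growth factor that acts on endothelium, had 260 and 307 counts in control cells, 1581 and 1536 under shControl, 464 and 606 under shMETTL3 and 454 and 422 under shMETTL14. It rose by 2.85 (SE 0.15, adjusted p = 1.6e-14, edgeR) and fell by 1.77 with shMETTL3 (SE 0.14, adjusted p = 5.4e-10, edgeR) and by 1.99 with shMETTL14 (SE 0.14, adjusted p = 5.7e-11, edgeR). CXCL8, a chemokine that is also angiogenic, was the other ligand that rose. The study selected both FGF2 and CXCL8 on these libraries for rising in senescence and falling with knockdown, so these directions are not independent evidence. PDGFD fell by 2.08 in senescent shControl cells (SE 0.24, adjusted p = 1.9e-07, edgeR) and by 3.27 with shMETTL14 against shControl (SE 0.47, adjusted p = 7.9e-06, edgeR). PDGFC, its paralog, had 914 and 971 counts in control cells, 569 and 581 under shControl, 1591 and 2156 under shMETTL3 and 514 and 717 under shMETTL14. Like HGF it was highest with shMETTL3, where it rose by 1.48 (SE 0.16, adjusted p = 1.2e-07, edgeR). With shMETTL3 1 ligand was higher and 7 were lower than with shControl (median -1.29), and with shMETTL14 2 were higher and 4 lower (median -0.56). All genes tested gave 13.3% higher and 13.3% lower in senescence, 12.3% and 11.2% with shMETTL3, and 9.15% and 12% with shMETTL14. Scaled by library size alone, 2 ligands were higher and 8 lower in senescence and 3 higher and 4 lower with shMETTL3, where 3 were lower without shControl 2 and 2 higher without shControl 1.

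Of 9 secreted inhibitors of angiogenesis 8 were tested. In senescence 4 were lower (median -0.50) and 0 higher by edgeR's test, with 0 also at an unadjusted p below 0.05 and by DESeq2. Over all genes tested, 13.3% were lower and 13.3% higher by edgeR's test. Library size alone gave 5015 genes lower and 752 higher and moved the median of all genes to -0.53. With library size alone 8 of the 8 were lower, and without control 1 or without shControl 1 there were 2. THBS1 (thrombospondin) had 3666 and 3628 counts in control cells, 1375 and 1532 under shControl, 1601 and 1730 under shMETTL3 and 292 and 565 under shMETTL14. It fell by 0.94 in senescent shControl cells (SE 0.18, adjusted p = 2.7e-04, edgeR) and by a further 1.91 with shMETTL14 (SE 0.20, adjusted p = 4.1e-08, edgeR), and its value with shMETTL3 was -0.02 (adjusted p = 0.95, edgeR). TIMP3, an inhibitor of matrix proteases that also binds KDR, fell by 1.56 in senescent shControl cells (SE 0.15, adjusted p = 3.1e-09, edgeR) and rose by 1.42 with shMETTL14 (SE 0.15, adjusted p = 4.6e-08, edgeR), but it lies wholly inside SYN3 and their reads cannot be told apart. With shMETTL3 1 inhibitor was higher (median -0.12), and with shMETTL14 1 was higher and 2 lower (median -0.28). The shares of all genes tested were 12.3% higher and 11.2% lower with shMETTL3 and 9.15% and 12% with shMETTL14. With library size alone 3 were higher with shMETTL3, and 1 was higher and 1 lower with shMETTL14. Leaving out 1 library gave 1 to 2 higher and 0 to 1 lower with shMETTL3 and 1 to 2 lower with shMETTL14.

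Of the relatives of the factors by sequence, 1 is described. STC2, the paralog of STC1, had 729 and 749 counts in control cells, 434 and 439 under shControl, 256 and 223 under shMETTL3 and 277 and 228 under shMETTL14. It was highest in control cells, where STC1 was lowest. STC2 fell by 1.08 with shMETTL3 (SE 0.14, adjusted p = 3.4e-06, edgeR) and by 0.95 with shMETTL14 (SE 0.14, adjusted p = 1.7e-05, edgeR).

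The genes most like 8 of the factors were ranked by Pearson's r of log2 TMM-scaled CPM over the 8 libraries, among tested genes whose mean count was 100 or more, as a description with no test. With 4 groups of 2 libraries, r mainly follows the group means, and all genes of a library share its depth and scaling. The top 3 were HK2, CDCP1 and C2CD2 for VEGFA (r from 0.986 to 0.996) and PPP2R2A, NSUN2 and SLC20A1 for VEGFC (0.988 to 0.997). For ANGPT1 they were CDC14B, PARVA and FAM227B (0.984 to 0.994), for ANGPT2 SNORA74A, SPRY4 and ATG16L1 (0.991 for each), and for ANGPTL4 HTR7, TRIB1 and NTNG1 (0.994 to 0.998). For ESM1 they were CAPZA1, TTC14 and ITGB1 (0.982 to 0.990), for HGF NCAPD2, SOX4 and CHN1 (0.989 to 0.995), and for STC1 TNFSF15, FHOD3 and INHBA-AS1 (0.994 to 0.997). HK2 is among the genes the study selected on these libraries for rising in senescence and falling with knockdown. Its likeness to VEGFA is therefore not independent evidence. Between the factors, r was 0.975 for ANGPTL4 and STC1, 0.965 for VEGFA and ESM1, 0.963 for ANGPT2 and ANGPTL4, and 0.958 for VEGFA and VEGFC, and the values of HGF with the other factors ran from -0.394 to 0.639. The lowest values were -0.923 for ANGPT1 and ANGPTL4, -0.905 for ANGPT1 and ANGPT2, and -0.875 for VEGFB and STC1.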

How the data were processed

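fastGRO-seq was analysed in 8 libraries of 4 groups. The values are the raw counts per gene that the authors deposited, made with HOMER over whole gene bodies on hg19 per the file header; the submitters' processing notes also name STAR and deepTools 3.3. Genes were taken by the symbol in the annotation column, all columns of sample values were used, and the spike-in was not used here, so changes are relative to other genes. The members and lists were chosen with earlier results of these data known. Counts were normalized by TMM and fitted with edgeR 4.0.16 (R 4.3.3, limma 3.58.1) over all groups, with filterByExpr at a minimum count of 10, quasi-likelihood tests and Benjamini-Hochberg adjustment over 12844 genes at 0.05. CPM are counts over the TMM-scaled library size times 1e6, and standard errors are the log2 fold change over the square root of F. Folds against libraries at 0 used a floor of 3 counts per library, which covers counting error only.

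Libraries held 1513930 to 2048475 counts outside ribosomal RNA genes, and the biological coefficient of variation was 10.6%. The fit was tested on simulated data. The first run of that test failed because DESeq2 recovered few changes at low counts, and its criteria were then changed to bias and false calls of both tools and recovery by edgeR at a mean of 100 counts or more. Alternatives were DESeq2 1.42.0, library size alone, ribosomal RNA genes left out, no filter, at least 10 counts in every library, only the groups compared, a replicate block, and each library left out. Genes named are the 10 factors, METTL3, METTL14, genes overlapping a factor, up to 3 called genes per list and direction with the largest change, the gene of each list highest per length on average over the groups, lists of 8 or fewer, and the 3 genes most like each factor. Some genes and counts that this rule takes are not reported here. The paper gives 2 biologically independent experiments for senescent against proliferating cells, and p-values measure only the spread between these libraries. That spread was 1.83, 1.59, 5.90 and 2.91 times the sampling noise in control, shControl, shMETTL3 and shMETTL14. An exact permutation test of 2 against 2 cannot go below 0.333. Plots were drawn with matplotlib 3.10.9 in Python 3.11.15.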

Additional observations from a re-analysis of the deposited data

Results flagged for a closer look

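Of the 9 factors tested, 3 differed between the knockdowns in the direct test of shMETTL14 minus shMETTL3 (edgeR's quasi-likelihood test), although both groups were senescent cells that carried an shRNA. Over all genes 4517 of 12844 passed the same test, so the count of factors is near the share of all genes and is no result about the factors as a group. HGF differed by -1.31 on the log2 scale (adjusted p = 2.0e-07), with scaled counts above shControl in both shMETTL3 libraries and below it in both shMETTL14 libraries. VEGFC differed by -0.79 (adjusted p = 1.2e-04) and STC1 by -0.59 (adjusted p = 0.0017). Each stayed past the threshold in all alternatives run, with values from -1.60 to -1.08 for HGF, -1.07 to -0.56 for VEGFC and -0.85 to -0.39 for STC1. In nascent counts METTL14 was not called lower than with shControl in the shMETTL14 libraries, but such counts do not measure the mRNA or protein left. The part of knockdown strength in these differences was not tested.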

How the results depend on the processing

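Of the recomputed counts of factors called, 136 stayed within 1.5 times their value and 8 moved, and of the recomputed log2 fold changes, 607 kept their side of the threshold, 22 lost and 9 gained a call and 1 with a call reversed; values without a call could change sign, as STC1 (0.25) and VEGFB (0.57) did with shMETTL3 and library size alone. With DESeq2, factors lower with shMETTL3 against control were 1. With library size alone, factors higher and lower with shMETTL3 against shControl were 4 and 1, factors higher with shMETTL14 against shControl were 1, and VEGFC with shMETTL3 against shControl reversed to 0.10; the cause was not tested. Leaving out a library gave 1 to 2 factors lower in senescence and 1 to 2 lower with shMETTL3 against control; the lone library left in a group is assumed to vary like the other groups. The replicate block changed no count of factors (6 higher and 3 lower in senescence); differences between replicates of equal number correlated from -0.06 to 0.30. Over all genes, calls fell with DESeq2 from 3413 to 2139 in senescence, 3008 to 1685 with shMETTL3 and 2720 to 1512 with shMETTL14 against shControl. Higher and lower calls, 1711 and 1702 in senescence, 1574 and 1434 with shMETTL3 and 1175 and 1545 with shMETTL14, became 752 and 5015, 5287 and 353, and 3163 and 709 with library size alone. Library size without ribosomal RNA genes and ANGPT2 less MCPH1 were chosen after seeing the data; the former put the all-gene median at -0.14 in senescence, against -0.03, and changed 1 call, STC1 with shMETTL3 (adjusted p = 0.0126). With at least 10 counts in every library ESM1 and ANGPTL4 gave no value.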
